A study of Mus musculus with 6 samples.

Results

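Glycolysis and the tricarboxylic acid (TCA) cycle were described through 31 genes, chosen by gene symbol as a fixed list of glucose transporters, glycolytic enzymes and TCA cycle enzymes, among the 17577 genes listed in every library. Germinal vesicle (GV) oocytes came from 12-week-old females of strain C57BL/6 J, and their transcripts were measured by Smart-seq2, in which polyadenylated RNA is copied into full-length cDNA and amplified before sequencing. The 6 libraries comprised 3 of genotype *Bnc1*tr/tr, the mutant, and 3 of wild type (WT). In the mutant both copies of *Bnc1* carry a frameshift that truncates basonuclin 1, a zinc finger protein of germ cells and keratinocytes. The allele is carried in the germ line, so the surrounding ovarian cells of the mutant mice hold it too, and the methods of the study describe gonadotropin-primed females from heterozygous matings and a single oocyte for each cDNA. Values were FPKM (fragments per kilobase of transcript for every M mapped fragments, M standing for mega), a level per transcript length that can be compared between genes. FPKM is relative to all transcripts of a library, so less of all RNA in an oocyte could not be seen, and in such libraries fewer cells of a type and less RNA per cell cannot be told apart.

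Glycolysis splits glucose into pyruvate in the cytosol, with an ATP-consuming stage down to the triose phosphates followed by an ATP-yielding stage that ends with pyruvate kinase. In mitochondria the TCA cycle condenses acetyl groups with oxaloacetate to citrate and oxidizes citrate back to oxaloacetate, feeding electrons to the respiratory chain. Mouse oocytes use glucose poorly and depend on pyruvate that cumulus cells make from glucose and pass on, and the oocyte in turn drives glycolytic genes of the cumulus cells through secreted growth factors.

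*Bnc1* itself was read first. Its level in *Bnc1*tr/tr replicates 1 to 3 was 9.04, 6.51 and 5.83 FPKM, compared with 13.2, 12.5 and 16.2 FPKM in the WT replicates. The groups did not overlap, and the log2 fold change was -0.89 with a standard error (SE) of 0.20 (limma adjusted p = 0.0090). A gene level of this kind does not show the small deletion behind the frameshift. Estimated depth ran from 12.6 to 21.9 M fragments, at which 3 fragments on 1 effective kilobase equal 0.137 to 0.239 FPKM, and lower values rest on few fragments. Because the cDNA was amplified and carried no molecular identifiers, these levels cover counting error only. All 14 oocyte markers fixed for this work were above 0 in all 6 libraries, with a summed level of 15604 to 16629 FPKM in *Bnc1*tr/tr and 17614 to 19358 FPKM in WT. Largest in the sum was *Dppa3*, with means of 6310 FPKM in *Bnc1*tr/tr and 8067 FPKM in WT, which overlapped. Of the 14 log2 fold changes 7 were above and 7 below 0. By the thresholds given below, 3 were called changed (21.4%, beside 31.8% of all tested genes). *Zp2* (-0.74) and *Nlrp5* (-0.62) were lower and *Mos* (0.90) was higher in *Bnc1*tr/tr. The study describes its replicates as biological, while the labels do not say whether those of a genotype came from separate mice, and the p-values measure the spread between these libraries.

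Among the 31 genes, 28 averaged 1 FPKM or more across the 6 libraries and were tested. A gene was called changed at a Benjamini-Hochberg adjusted p under 0.05 over all 10560 tested genes together with an absolute log2 fold change over 0.5, both from limma on log2(FPKM + 1). With these thresholds 9 of 28 tested genes were called, which is 32.1% against 31.8% of all tested genes, so the number of calls was that of the transcriptome at large. *Hk2*, *Gpi1*, *Aldoc*, *Eno1*, *Cs*, *Idh1* and *Idh3g* were higher in *Bnc1*tr/tr oocytes, and *Tpi1* and *Idh3b* were lower. Over all tested genes 24.1% were called higher and 7.68% lower. The median log2 fold change of the 28 genes was 0.10, beside 0.15 over all tested genes, with 16 above and 12 below 0. Libraries of the 2 genotypes did not overlap for 15 of the 28 genes, 10 higher and 5 lower, which is 53.6% against 46.8% of all tested genes (32.7% higher and 14.1% lower).

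**Figure D1:**
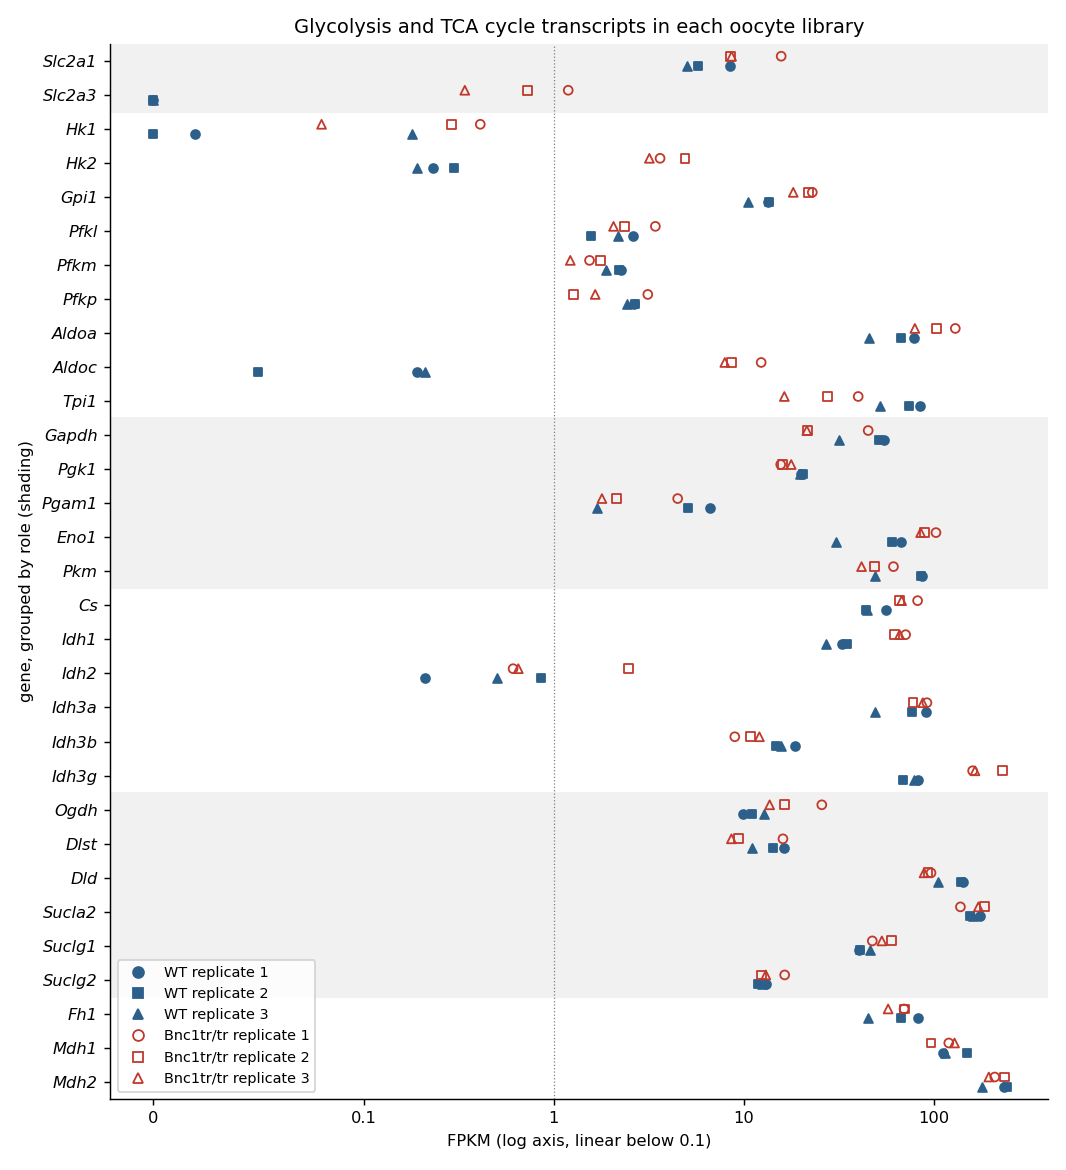
Level of each of the 31 genes in every library, in FPKM on a log axis that is linear below 0.1. Filled blue symbols are WT and open red symbols *Bnc1*tr/tr, with circle, square and triangle for replicates 1, 2 and 3, and shading separates the roles from glucose uptake to malate dehydrogenase. *Hk2* and *Aldoc* lie below 1 FPKM in all 3 WT libraries and above it in all 3 *Bnc1*tr/tr libraries, while *Sucla2*, *Mdh1* and *Mdh2* lie near or above 100 FPKM in both genotypes.

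In WT oocytes the levels of the 31 genes spanned from 0 FPKM for *Slc2a3* to a mean of 218 FPKM for *Mdh2*. The 4 with the highest mean, *Mdh2*, *Sucla2*, *Dld* and *Mdh1*, were mitochondrial enzymes apart from *Mdh1*, the cytosolic malate dehydrogenase. Their means were 218, 163, 128 and 125 FPKM, and of neighbours in this order only *Dld* and *Mdh1* overlapped between WT libraries. *Pkm*, *Tpi1*, *Aldoa* and *Eno1* were the glycolytic genes with the highest means, from 52.6 to 73.5 FPKM, and their WT libraries also overlapped with each other. The *Bnc1*tr/tr order was again led by *Mdh2* with a mean of 212.5 FPKM, followed by *Idh3g* with 184 FPKM, whose libraries overlapped with those of *Mdh2*. Hexokinase and phosphofructokinase, the committing kinases of the pathway, were low, with *Hk1* and *Hk2* together at 0.307 ± 0.0603 FPKM and *Pfkl*, *Pfkm* and *Pfkp* together at 6.79 ± 0.598 FPKM in WT (SD, n = 3 each).

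Promoter windows are shown for called genes of 3 families described below, hexokinase (*Hk2*), aldolase (*Aldoc*) and NAD isocitrate dehydrogenase (*Idh3g* and *Idh3b*). Those of the other called genes are given by their matches only. Each window is the RefSeq sequence of build GRCm38.p6 from 250 bases before to 50 bases after the annotated start, written 5′ to 3′ on the gene's strand. Capitals mark ACGTG, the core letters of the hypoxia response element through which HIF1 acts on many glycolytic genes, or CACGT, the same letters on the other strand.
*Hk2*, chr6:82774405-82774704, minus strand: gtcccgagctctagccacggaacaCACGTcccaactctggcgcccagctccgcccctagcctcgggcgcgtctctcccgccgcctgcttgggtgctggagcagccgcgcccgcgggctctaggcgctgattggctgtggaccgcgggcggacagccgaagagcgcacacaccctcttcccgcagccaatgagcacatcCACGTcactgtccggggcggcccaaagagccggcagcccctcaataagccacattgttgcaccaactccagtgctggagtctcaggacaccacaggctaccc
*Aldoc*, chr11:78322823-78323122, plus strand: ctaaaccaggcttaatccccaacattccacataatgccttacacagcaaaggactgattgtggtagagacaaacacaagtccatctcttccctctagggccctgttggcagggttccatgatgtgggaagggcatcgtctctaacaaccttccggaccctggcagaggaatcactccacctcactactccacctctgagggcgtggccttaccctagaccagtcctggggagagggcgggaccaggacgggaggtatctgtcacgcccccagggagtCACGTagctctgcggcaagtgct
*Idh3g*, chrX:73786848-73787147, minus strand: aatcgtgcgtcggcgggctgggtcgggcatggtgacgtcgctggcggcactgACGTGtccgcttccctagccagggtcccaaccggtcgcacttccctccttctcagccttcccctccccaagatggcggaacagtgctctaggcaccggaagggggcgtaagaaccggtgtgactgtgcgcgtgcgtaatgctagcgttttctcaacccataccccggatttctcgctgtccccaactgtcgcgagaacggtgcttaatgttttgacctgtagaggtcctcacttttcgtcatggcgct
*Idh3b*, chr2:130284402-130284701, minus strand: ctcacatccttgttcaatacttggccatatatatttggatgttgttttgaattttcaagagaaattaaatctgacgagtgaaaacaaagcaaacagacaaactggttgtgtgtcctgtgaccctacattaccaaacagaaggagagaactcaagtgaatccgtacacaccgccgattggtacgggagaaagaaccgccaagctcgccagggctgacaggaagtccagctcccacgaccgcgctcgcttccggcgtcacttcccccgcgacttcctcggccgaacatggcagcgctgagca
The *Hk2* window held 2 matches, whose first bases lie at -226 and -52 relative to the start. *Aldoc* held 1 at 28 and *Idh3g* 1 at -198, and *Idh3b* held 0. A further *Aldoc* window, chr11:78323948-78324247, held 0. All windows of the other called genes, *Gpi1*, *Tpi1*, *Eno1*, *Cs* and *Idh1*, also held 0. Among the 31 genes, 29 had a RefSeq window in the table, all except *Slc2a3* and *Idh3a*, with 45 windows together. ACGTG or CACGT occurred in 44.4% of these windows and in 13 of the 29 genes, beside 19.6% of all 32851 windows. The 45 windows were also richer in CpG, with a median of 20 per window against 7 over all windows, and 6 of the matching windows belong to *Ogdh* alone. The E-box CACGTG, a palindrome that contains the former letters, occurred in 8.89% of the windows and 7.15% of all. GGAATG or CATTCC, the letters bound by TEAD factors of the YAP pathway, occurred in 11.1% against 14.7%, and the GC box GGGCGG or CCGCCC in 62.2% against 35.7%. For ACGTG or CACGT, the matching genes other than *Hk2*, *Aldoc* and *Idh3g* were not called. The matches are descriptions of letters, windows of a gene can overlap, and a relation to the calls was not tested.

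Glucose uptake was represented by the facilitative transporters GLUT1 and GLUT3. *Slc2a1*, the gene of the ubiquitous GLUT1, had 15.7, 8.47 and 8.61 FPKM in *Bnc1*tr/tr and 8.49, 5.74 and 5.0 FPKM in WT libraries. Its groups overlapped by a narrow margin, and the log2 fold change of 0.66 was not called (SE 0.27, limma adjusted p = 0.093). With the replicate number as a block it was called (limma adjusted p = 0.018). *Slc2a3*, the gene of the high-affinity GLUT3, was listed at 0 in all 3 WT libraries and at 1.19, 0.73 and 0.34 FPKM in *Bnc1*tr/tr. With a mean of 0.377 FPKM it was not among the tested genes, and it was called when no filter on low values was used (limma adjusted p = 0.033).

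The upper steps of glycolysis held the genes with the highest log2 fold changes of the list. Hexokinase 2, the insulin-responsive isoenzyme that traps glucose as glucose 6-phosphate, is encoded by *Hk2* (chr6:82725025-82774454). *Hk2* had 3.62, 4.90 and 3.18 FPKM in *Bnc1*tr/tr and 0.23, 0.30 and 0.19 FPKM in WT libraries. Every mutant library lay above every WT library, the ratio of the means was 16.3, and the log2 fold change was 1.97 (SE 0.18, limma adjusted p = 6.7e-05). *Hk1*, the constitutive hexokinase, stayed below 0.5 FPKM in all libraries and was not tested. Hexokinase transcript as a sum of *Hk1* and *Hk2* was 4.16 ± 0.972 FPKM in *Bnc1*tr/tr and 0.307 ± 0.0603 FPKM in the WT (SD, n = 3 each).

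*Aldoc* (chr11:78323073-78327781), the gene of the aldolase known from brain, had the highest fold change of the 28 genes. It had 12.3, 8.62 and 7.93 FPKM in *Bnc1*tr/tr and 0.19, 0.05 and 0.21 FPKM in WT libraries. The WT values lie near the level of a few fragments, and the log2 fold change of 3.19 (SE 0.19, limma adjusted p = 7.4e-06) is on the log2(FPKM + 1) scale. With a pseudocount of 0.1 in place of 1 the log2 fold changes were 5.33 for *Aldoc* and 3.55 for *Hk2*, because a smaller pseudocount compresses low values less. *Aldoc* and *Hk2* passed the filter on low values through the *Bnc1*tr/tr libraries, since their WT means were 0.150 and 0.240 FPKM. None of the 31-base words of *Aldoc* transcripts, and 0.219% of those of *Hk2*, occur in transcripts of other genes.

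*Aldoa*, the gene of the main aldolase, had 129, 103 and 79.3 FPKM in *Bnc1*tr/tr and 78.9, 67.2 and 45.6 FPKM in WT libraries. The groups did not overlap, by a margin of less than 1 FPKM, and the log2 fold change of 0.70 was not called (SE 0.25, limma adjusted p = 0.064), but was with the replicate block (limma adjusted p = 0.013). *Aldoa* remained the predominant aldolase in both genotypes. *Aldoc* made up 8.50% ± 0.709 of the summed aldolase FPKM in mutant and 0.258% ± 0.192 in WT oocytes (SD, n = 3 each).

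*Gpi1* (chr7:34201327-34230336), whose enzyme converts glucose 6-phosphate to fructose 6-phosphate, had 22.9, 21.9 and 18.2 FPKM in *Bnc1*tr/tr and 13.3, 13.5 and 10.55 FPKM in WT libraries. It was called higher at a log2 fold change of 0.71 (SE 0.18, limma adjusted p = 0.015). *Tpi1* (chr6:124810586-124814158), whose enzyme interconverts the 2 triose phosphates made by aldolase, went the other way. It had 39.9, 27.5 and 16.3 FPKM in *Bnc1*tr/tr and 84.1, 74.0 and 51.9 FPKM in WT libraries. All mutant libraries lay below all WT libraries, and the log2 fold change was -1.36 (SE 0.31, limma adjusted p = 0.011). Of the 31-base words of *Gpi1* and *Tpi1*, 31.4% and 16.6% occur in other genes, among them *Gm1840* and *Tpi-rs11*, so fragments could be split between copies and their values are less certain.

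The phosphofructokinase genes, whose enzyme sets the pace of glycolysis in most cells, were not called. *Pfkl*, the liver type, had 3.42, 2.36 and 2.06 FPKM in *Bnc1*tr/tr and 2.60, 1.56 and 2.17 FPKM in WT libraries. *Pfkm*, the muscle type, had 1.54, 1.76 and 1.22 FPKM against 2.25, 2.2 and 1.87 FPKM, and *Pfkp*, the platelet type, had 3.12, 1.27 and 1.65 FPKM against 2.63, 2.67 and 2.42 FPKM. *Pfkm* was below WT without overlap, and the other two genes overlapped. Log2 fold changes were 0.21 for *Pfkl*, -0.31 for *Pfkm* and -0.29 for *Pfkp* (limma adjusted p from 0.18 to 0.47). After quantile normalization, which sets all libraries to the same distribution, *Pfkl* was at -0.23, and *Pfkm* (-0.75) and *Pfkp* (-0.72) were called lower.

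**Figure D2:**
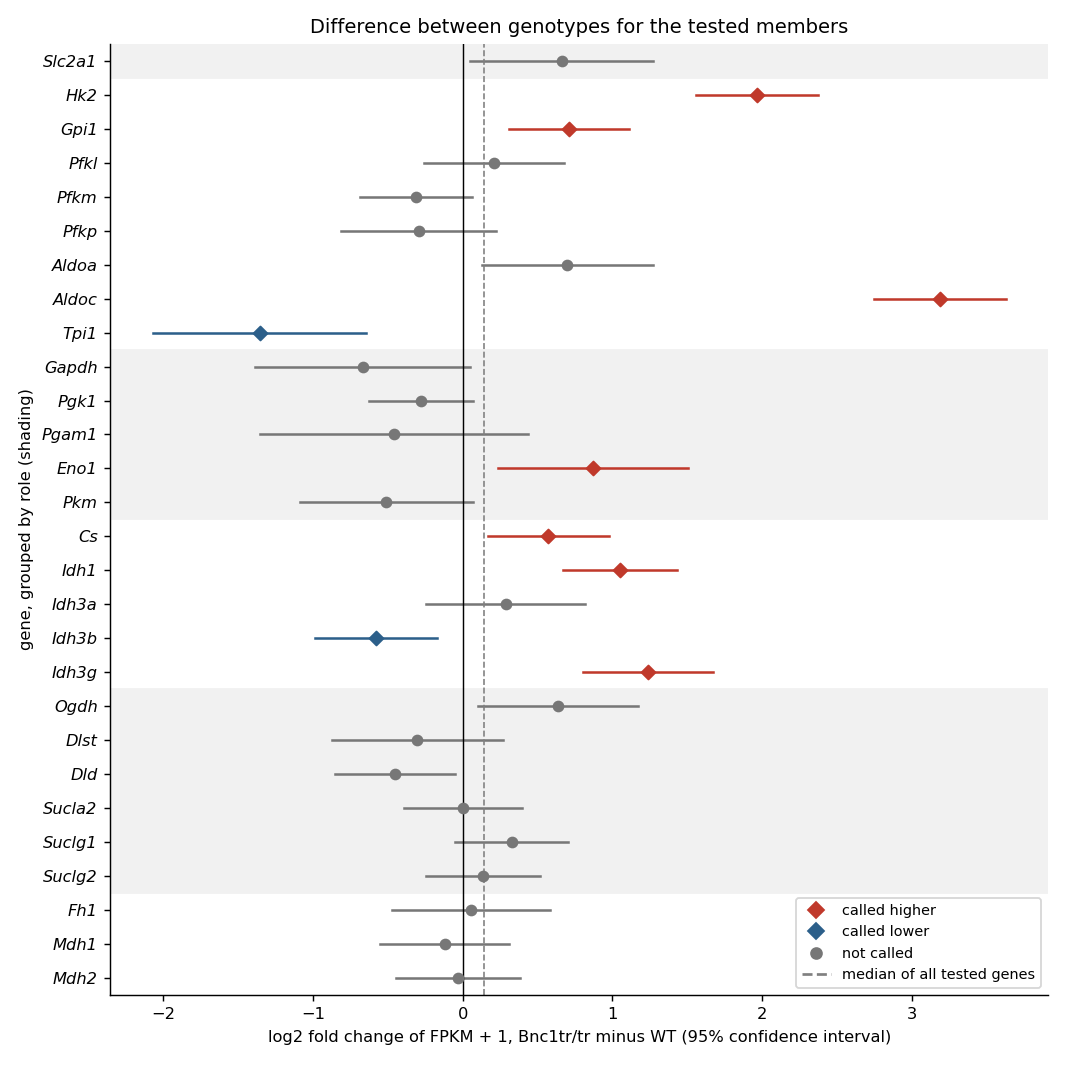
Log2 fold change of FPKM + 1, *Bnc1*tr/tr minus WT, for each of the 28 tested genes, with its 95% confidence interval from limma. Red diamonds were called higher, blue diamonds called lower and grey circles not called, and the dashed line is the median of all tested genes at 0.15. *Aldoc* at 3.19 and *Hk2* at 1.97 stand farthest to the right and *Tpi1* at -1.36 farthest to the left.

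In lower glycolysis 1 of 5 genes was called, beside 31.8% of all tested genes, and 5 genes are too few to tell these shares apart. *Eno1* (chr4:150236708-150248879), the gene of the main enolase, had 102, 89.3 and 85.0 FPKM in *Bnc1*tr/tr and 67.1, 60.1 and 30.6 FPKM in WT libraries, a log2 fold change of 0.87 (SE 0.28, limma adjusted p = 0.042). WT replicate 3 stood well below the other WT libraries, and without it the log2 fold change fell to 0.53 (limma adjusted p = 0.045). In contrast to *Eno1*, the other 4 genes had lower means in *Bnc1*tr/tr oocytes, and none was called. *Gapdh*, whose enzyme makes the NADH of glycolysis, had 45.0, 21.7 and 21.4 FPKM against 54.2, 51.1 and 31.6 FPKM. *Pkm*, the gene of pyruvate kinase, had 61.2, 48.45 and 41.6 FPKM against 86.5, 84.9 and 49.1 FPKM. Both overlapped between genotypes, with log2 fold changes of -0.67 (limma adjusted p = 0.14) and -0.51 (limma adjusted p = 0.16). *Gapdh* was called lower with the replicate block (limma adjusted p = 0.043).

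*Pgk1*, whose kinase yields the first ATP of the pathway, ranged from 15.6 to 17.7 FPKM in *Bnc1*tr/tr and from 19.7 to 20.5 FPKM in WT libraries, without overlap. Its log2 fold change was -0.28 (SE 0.15, limma adjusted p = 0.20), with a 95% interval from -0.62 to 0.07. *Pgam1*, the gene of phosphoglycerate mutase, ranged from 1.79 to 4.48 FPKM and from 1.69 to 6.59 FPKM, and the spread within each genotype covered its difference. The 5 genes of lower glycolysis also had the highest shares of 31-base words found in other genes among the 31 genes. Words shared with other genes made up 68.3% of *Pgk1*, 62.6% of *Gapdh*, 53.5% of *Eno1*, 42.1% of *Pgam1* and 34.8% of *Pkm*, so these 5 levels are uncertain.

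The entry into the TCA cycle held 4 calls among 5 tested genes (80.0%, beside 31.8% of all tested genes), of which *Cs* lost the call in 9 of 13 alternatives and *Idh3b* in 5. *Cs* (chr10:128337727-128362482), the gene of citrate synthase, had 82.0, 65.8 and 67.55 FPKM in *Bnc1*tr/tr and 55.6, 43.8 and 44.4 FPKM in WT libraries. The groups did not overlap, and the log2 fold change of 0.57 (SE 0.18, limma adjusted p = 0.037) lay close to both thresholds. *Idh1* (chr1:65158616-65186479), the gene of the cytosolic isocitrate dehydrogenase that makes NADPH, had 70.9, 62.3 and 65.9 FPKM against 32.9, 35.0 and 27.1 FPKM. The mutant libraries were close to each other and all above WT, with a ratio of means of 2.10 and a log2 fold change of 1.05 (SE 0.17, limma adjusted p = 0.0017). *Idh2*, the gene of the mitochondrial NADP enzyme, was low at 0.61, 2.46 and 0.65 FPKM against 0.21, 0.86 and 0.50 FPKM, overlapped and was not tested.

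The NAD-dependent isocitrate dehydrogenase of the TCA cycle is built from catalytic alpha and regulatory beta and gamma subunits, encoded by *Idh3a*, *Idh3b* and *Idh3g*. *Idh3g* (chrX:73778963-73786897) had 159.6, 228 and 164 FPKM in *Bnc1*tr/tr and 82.4, 68.5 and 78.7 FPKM in WT libraries. It was called higher, with a ratio of means of 2.41 and a log2 fold change of 1.24 (SE 0.19, limma adjusted p = 0.0014). *Idh3b* (chr2:130279309-130284451) was called lower, at 8.95, 10.85 and 12.1 FPKM against 18.7, 14.7 and 15.6 FPKM and a log2 fold change of -0.58 (SE 0.18, limma adjusted p = 0.037). *Idh3a*, at 91.8, 77.6 and 87.3 FPKM against 90.75, 76.3 and 48.8 FPKM, overlapped between genotypes, and its log2 fold change was 0.29 (limma adjusted p = 0.39).

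The subunit transcripts of this enzyme thus stood in different proportions in the 2 genotypes. *Idh3g* made up 65.2% ± 5.96 of the summed *Idh3* FPKM in mutant and 47.0% ± 6.97 in WT oocytes, and *Idh3b* made up 3.81% ± 0.661 and 9.94% ± 0.864 (SD, n = 3 each), both without overlap. The sum over the 3 subunit genes was 280.3 ± 31.7 FPKM in *Bnc1*tr/tr and 165 ± 24.8 FPKM in WT (SD, n = 3 each). None of the 31-base words of the 3 genes or of *Idh1* is shared with other genes.

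From 2-oxoglutarate to succinate none of the 6 genes was called by limma, beside 31.8% of all tested genes. *Ogdh*, the gene of the decarboxylating subunit of 2-oxoglutarate dehydrogenase, had 25.7, 16.3 and 13.65 FPKM in *Bnc1*tr/tr and 9.86, 11.01 and 12.8 FPKM in WT libraries, without overlap (log2 fold change 0.64, SE 0.24, limma adjusted p = 0.071). *Dld*, the gene of the dihydrolipoyl dehydrogenase shared with pyruvate dehydrogenase, had 96.4, 93.0 and 88.7 FPKM against 142, 138 and 104 FPKM, also without overlap (log2 fold change -0.45, SE 0.18, limma adjusted p = 0.083). *Dlst*, the gene of the succinyl-transferring subunit, had 16.04, 9.35 and 8.59 FPKM against 16.3, 14.2 and 11 FPKM and overlapped. After upper-quartile scaling *Dld* was called lower, at -0.59 (limma adjusted p = 0.021).

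Succinyl-CoA synthetase pairs the alpha subunit of *Suclg1* with an ATP-forming beta subunit of *Sucla2* or a GTP-forming one of *Suclg2*. *Sucla2* had 138, 185 and 171 FPKM in *Bnc1*tr/tr and 174, 156 and 160.1 FPKM in WT libraries. Its log2 fold change was 0.00062, with a 95% interval from -0.39 to 0.39. *Suclg1* lay without overlap above WT, at 47.35 to 60.0 FPKM against 40.2 to 46.15 FPKM, and was not called (log2 fold change 0.33, limma adjusted p = 0.17). *Suclg2*, at 16.4, 12.4 and 13.0 FPKM against 13.1, 11.9 and 12.5 FPKM, overlapped, and 24.5% of its words occur in other genes.

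The last steps, from fumarate to oxaloacetate, had 3 genes without a call. *Fh1*, the gene of fumarase, ranged from 57.35 to 69.7 FPKM in *Bnc1*tr/tr and from 44.8 to 82.4 FPKM in WT libraries. *Mdh1*, which also serves the malate-aspartate shuttle, had 119.6, 96.5 and 128 FPKM against 112, 148 and 115 FPKM. *Mdh2*, the mitochondrial malate dehydrogenase, had 209, 235 and 194 FPKM against 233, 243 and 179 FPKM. Log2 fold changes of *Fh1*, *Mdh1* and *Mdh2* were 0.06, -0.12 and -0.03, and their 95% intervals reached from -0.47 to 0.58, from -0.55 to 0.31 and from -0.44 to 0.38. Summed over the 15 TCA cycle genes, FPKM was 1167 ± 50.9 in mutant and 1024 ± 109 in WT oocytes without overlap, and over the 16 uptake and glycolysis genes 376 ± 79.3 and 356 ± 91.7 with overlap (SD, n = 3 each). Without *Idh3g*, left out after its values were seen, the TCA cycle sums were 992, 995 and 961 FPKM in *Bnc1*tr/tr and 1022, 999.8 and 822 FPKM in WT libraries, and they overlapped.

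Ratios between isoenzymes or subunits within a library were compared next, because scaling of a library moves both members of a pair alike apart from the pseudocount. The log2 ratio of FPKM + 1 was compared for 12 pairs by permuting the library labels exactly and on both sides, and since 3 against 3 libraries cannot give a p below 0.10, no pair could pass 0.05. For 8 pairs the genotypes did not overlap (exact permutation p = 0.10, Benjamini-Hochberg adjusted p = 0.15 each). No share over other pairs of genes was taken, and taken singly 46.8% of all tested genes did not overlap. The log2 ratio of *Aldoc* to *Aldoa* was -3.29, -3.44 and -3.17 in *Bnc1*tr/tr and -6.07, -6.02 and -5.27 in WT libraries, a difference of 2.49, which was 4.62 with a pseudocount of 0.1. The log2 ratio of *Hk2* to *Hk1* differed by 1.73, which is mainly *Hk2* because *Hk1* was near 0 in both genotypes.

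Ratios within the isocitrate dehydrogenase and 2-oxoglutarate dehydrogenase complexes also separated. The log2 ratio of *Idh3g* to *Idh3a* was 0.79, 1.55 and 0.90 in *Bnc1*tr/tr and -0.14, -0.15 and 0.68 in WT libraries, and WT replicate 3 came close to the mutant range. For *Idh3b* to *Idh3a* it was -3.22, -2.73 and -2.76 against -2.22, -2.30 and -1.59, and the mean difference was -0.87. For *Dlst* and *Dld* over *Ogdh* the differences were -0.94 and -1.09, both pairs sharing *Ogdh*. *Ogdh* made up 14.9% ± 3.29 of the summed FPKM of this complex in mutant and 7.52% ± 2.17 in WT oocytes (SD, n = 3 each).

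Among the phosphofructokinases, *Pfkp* and *Pfkm* relative to *Pfkl* differed by -0.51 and -0.53 on the log2 scale, without overlap. *Pfkl* accordingly made up 42.6% ± 1.03 of their summed FPKM in mutant and 30.9% ± 5.75 in WT oocytes (SD, n = 3 each). The pairs *Slc2a3* and *Slc2a1*, *Idh2* and *Idh1*, *Suclg2* and *Sucla2*, and *Mdh2* and *Mdh1* overlapped, with exact permutation p from 0.40 to 0.90. For *Slc2a3* to *Slc2a1* this rests on the pseudocount, since *Slc2a3* was listed at 0 in all WT libraries. The difference of 0.12 became 2.23 with a pseudocount of 0.1 (exact permutation p = 0.10), and *Slc2a3* made up 3.80% to 7.93% of the FPKM of the pair in *Bnc1*tr/tr libraries.

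**Figure D3:**
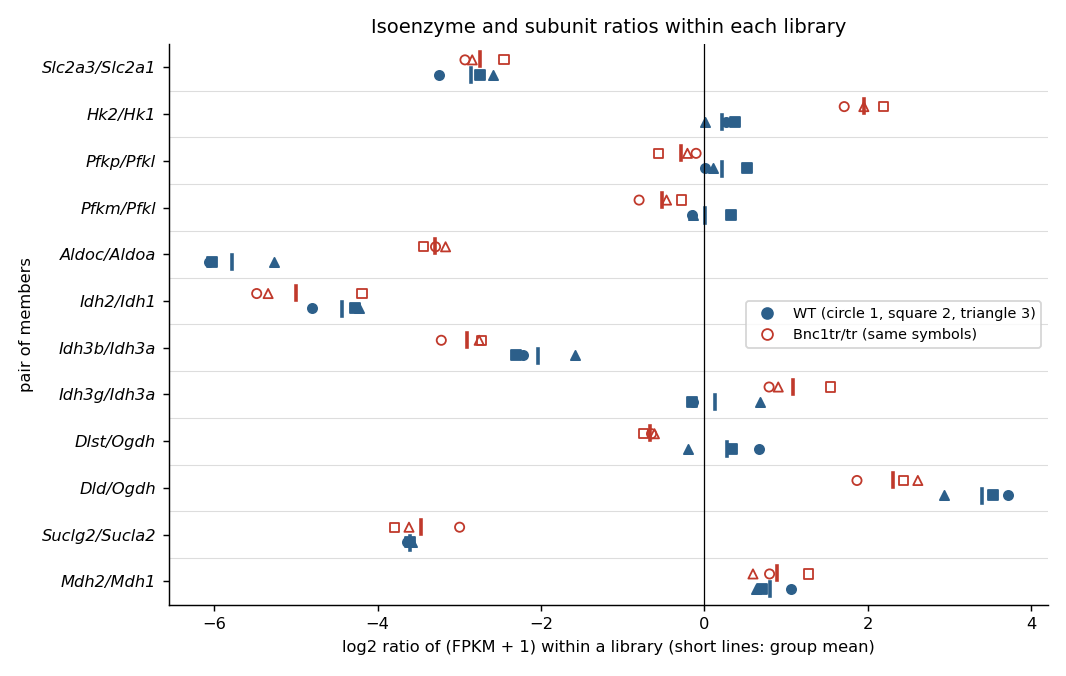
Log2 ratio of FPKM + 1 between the 2 genes of each of 12 pairs, within each library. Filled blue symbols are WT and open red symbols *Bnc1*tr/tr, circle, square and triangle are replicates 1, 2 and 3, and short vertical lines are group means. The genotypes are apart for *Aldoc*/*Aldoa*, by 2.49, and for *Hk2*/*Hk1*, by 1.73, and lie over each other for *Mdh2*/*Mdh1* and *Suclg2*/*Sucla2*.

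The libraries themselves differed in the level of these genes as a group. *Bnc1*tr/tr replicate 1 was the highest of its genotype for 18 of the 28 tested genes (64.3%, beside 42.4% of all tested genes). WT replicate 1 was likewise highest for 18 (64.3% beside 43.8%), and WT replicate 3 was lowest for 18 (64.3% beside 49.5%). *Bnc1*tr/tr replicate 3 was lowest for 16 (57.1% beside 36.8%), so for these genes replicate 1 was most often the highest and replicate 3 most often the lowest in both genotypes. WT replicate 3 also had the fewest genes above 0, 13896 against 14565 and 14576 in the other WT libraries. Every *Bnc1*tr/tr library had more genes above 0 than every WT library, with 15627, 15736 and 15258 in replicates 1 to 3. The part of this difference in genes near 0 in WT, such as *Aldoc* and *Hk2*, was not tested. Without WT replicate 3, 11 genes were called, 6 higher and 5 lower (33.8% of all tested genes), and without *Bnc1*tr/tr replicate 2, 5 genes were called, 4 higher and 1 lower (25.0% of all tested genes).

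Markers of other ovarian cells were read in the same libraries. The 16 listed of 17 granulosa and cumulus markers summed to 364 to 429 FPKM in *Bnc1*tr/tr and 200.3 to 332 FPKM in WT, most of it *Serpine2* and *Cyp19a1*. *Foxl2* and *Amhr2*, defining granulosa genes, were at 0 in all *Bnc1*tr/tr libraries and at no more than 0.21 FPKM in WT. Of 7 tested markers 3 were called higher, *Fshr*, *Cyp11a1* and *Kitl* (42.9%, beside 24.1% of all tested genes called higher). Markers with lower means in *Bnc1*tr/tr included *Hsd3b1*, *Hsd17b1* and *Fst*, which overlapped and were not tested. *Fshr*, the follicle-stimulating hormone receptor, had 4.54, 5.83 and 5.37 FPKM against 0.31, 0.74 and 0. With a WT mean of 0.35 FPKM, *Fshr* passed the filter on low values through the *Bnc1*tr/tr libraries. Of the granulosa genes *Inha* and *Gja1*, WT replicates 1 and 2 held 6.78 and 3.45 FPKM and 2.77 and 1.14 FPKM, against 0.04 and 0.06 FPKM in WT replicate 3. The *Bnc1*tr/tr libraries held 0.18, 1.81 and 0.09 FPKM of *Inha* and 0.63, 0.68 and 0.2 FPKM of *Gja1*. Immune markers, 10 of 10 listed, summed to 61.2 to 129 FPKM in *Bnc1*tr/tr and 66.2 to 97.3 FPKM in WT, most of it *C1qb*. Without *C1qb* the sums were 25.9, 58.1 and 2.60 FPKM in *Bnc1*tr/tr and 3.0, 2.01 and 1.39 FPKM in WT libraries. *C1qa* and *Cd3e* were above 0 in all *Bnc1*tr/tr and at 0 in all WT libraries, and 0, 1 and 3 of the 10 markers were at 0 in the former against 7, 7 and 8 in the latter.

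*Lyz2*, a macrophage gene, had 5.81, 48.0 and 0 FPKM in *Bnc1*tr/tr libraries and 0 in all WT libraries. The 5 listed of 7 theca and stroma markers summed to 5.35 to 7.53 FPKM against 1.54 to 2.09 FPKM, mostly *Dcn*, with *Col1a1* at 0.01 FPKM or less. The 5 listed of 7 blood and endothelial markers summed to 3.69 to 13.0 FPKM against 7.62 to 10.04 FPKM. Within the latter, *Pecam1* was called lower, at 4.01 against 9.11 FPKM on average (limma adjusted p = 0.0048). *Kdr* lay above WT without overlap and was not tested, and *Hba-a1* had 0.4, 5.9 and 0 FPKM against 0 in all WT libraries. The part of other cells in the glycolysis and TCA results was not tested. Replicates 1 and 2 of *Bnc1*tr/tr held the *Lyz2* transcript. Without them the median log2 fold change of 27 tested genes was 0.05, beside 0.10 over all tested genes. Replicate 3, the mutant library left, still had 5.37 FPKM of *Fshr* and 4.93 FPKM of *Dcn*, so this fit cannot show the part of other cells. Without WT replicates 1 and 2, which held *Inha* and *Gja1*, the median of 29 tested genes was 0.24, beside 0.27 over all tested genes.

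Other genes of the same pathways were taken from a list of 63, of which 56 were listed and 36 tested. Of the 36, 9 were called (25.0%, beside 31.8% of all tested genes), 6 higher and 3 lower. Of the genes that control the phosphofructokinase step or reverse it, 4 of 6 tested genes were called (66.7% beside the same 31.8%). *Pfkfb3*, a kinase gene that favours glycolysis, had 2.26, 2.95 and 2.83 FPKM in *Bnc1*tr/tr and 0.24, 0.42 and 0.13 FPKM in WT libraries (log2 fold change 1.54, limma adjusted p = 2.1e-04). With WT means of 0.263, 0.88 and 0.577 FPKM, *Pfkfb3*, *Slc2a9* and *Pdp2* passed the filter on low values through the *Bnc1*tr/tr libraries. *Pfkfb2* was higher as well, at 2.47 against 1.09 FPKM on average (0.74, limma adjusted p = 0.019), with 24.3% of its words in other genes.

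The gluconeogenic fructose bisphosphatases, which undo the phosphofructokinase step, went in opposite directions. *Fbp1* had 49.6, 61.7 and 56.5 FPKM in *Bnc1*tr/tr and 103, 110.3 and 84.1 FPKM in WT libraries (log2 fold change -0.81, limma adjusted p = 0.0083). *Fbp2* had 49.9, 60.7 and 44.6 FPKM against 37.4, 33.5 and 35.8 FPKM (0.52, limma adjusted p = 0.048). The transporter *Slc2a9*, which carries urate and hexoses, was higher at 3.91, 4.43 and 4.72 FPKM against 1.09, 0.89 and 0.66 FPKM (1.51, limma adjusted p = 2.1e-04).

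Between glycolysis and the TCA cycle stands pyruvate dehydrogenase, and its subunit genes *Pdha1*, *Pdhb*, *Dlat* and *Pdhx* were not called, with log2 fold changes from -0.05 to 0.41. The value of 0.41 is that of *Pdhb*, and 41.9% of its words occur in other genes. *Pdp2*, a phosphatase gene that activates the complex, was called higher at 4.15, 3.45 and 2.66 FPKM against 0.39, 0.26 and 1.08 FPKM (1.51, limma adjusted p = 0.0013). The kinase gene *Pdk3*, which inactivates it, had a mean of 21.5 FPKM against 35.8 FPKM and overlapped (-0.67, limma adjusted p = 0.061). Among the remaining TCA cycle genes *Me2*, a mitochondrial malic enzyme gene, was lower at 33.7 against 58.7 FPKM on average (-0.78, limma adjusted p = 0.021). The succinate dehydrogenase genes *Sdha*, *Sdhb*, *Sdhc* and *Sdhd* were not called, with log2 fold changes from -0.27 to -0.04.

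Genes of transcriptional control gave 2 calls of 7 tested genes (28.6%, beside 31.8% of all tested genes). The 7 were genes of transcription factors that act on glycolytic genes and the prolyl hydroxylase genes *Egln1* and *Egln2*. *Mlxip*, a glucose-sensing factor gene, was higher at 10.97, 6.77 and 6.46 FPKM against 4.08, 3.88 and 2.22 FPKM (1.04, limma adjusted p = 0.013). *Arnt*, the gene of the partner of HIF1 alpha, was lower at 2.03 against 3.75 FPKM on average (-0.63, limma adjusted p = 0.034), and *Hif1a* was not called (0.33, limma adjusted p = 0.15). *Epas1*, the gene of HIF2 alpha, and *Egln3*, the gene of a prolyl hydroxylase that acts on HIF alpha subunits, averaged less than 1 FPKM, were not among the tested genes and are named after their values were seen. *Epas1* had 1.72, 1.29 and 0.89 FPKM in *Bnc1*tr/tr and 0.01, 0.05 and 0.03 FPKM in WT libraries, and *Egln3* 0.83, 1.64 and 0.68 FPKM against 0.03, 0.22 and 0.04 FPKM. Both lay above WT without overlap, and with no filter on low values both were called higher (limma adjusted p = 0.0045 and 0.026). The most abundant gene of the whole list was *Bpgm*, the bisphosphoglycerate mutase gene, with 1064 to 1168 FPKM in *Bnc1*tr/tr and 1137 to 1487 FPKM in WT, and it was not called.

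The calls were compared across scalings because the median difference over all tested genes, 0.15 on the log2 scale as deposited, was 0.02 after upper-quartile scaling, -0.02 with median ratios and -0.09 with quantile normalization. *Hk2*, *Aldoc*, *Tpi1*, *Idh1*, *Idh3b* and *Idh3g* were called in the same direction under all 3. *Gpi1* was not called after quantile normalization, *Eno1* after median-ratio scaling, and *Cs* after any of them. The split of calls moved from 7 higher and 2 lower to 6 and 3 after upper-quartile scaling and to 5 and 5 under each of the other two, while 31.97%, 32.5% and 32.9% of all tested genes were called. Genes that became called lower were *Dld* after upper-quartile scaling, *Gapdh*, *Pkm* and *Dld* under median ratios, and *Pfkm*, *Pfkp* and *Pgk1* under quantile normalization.

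**Figure D4:**
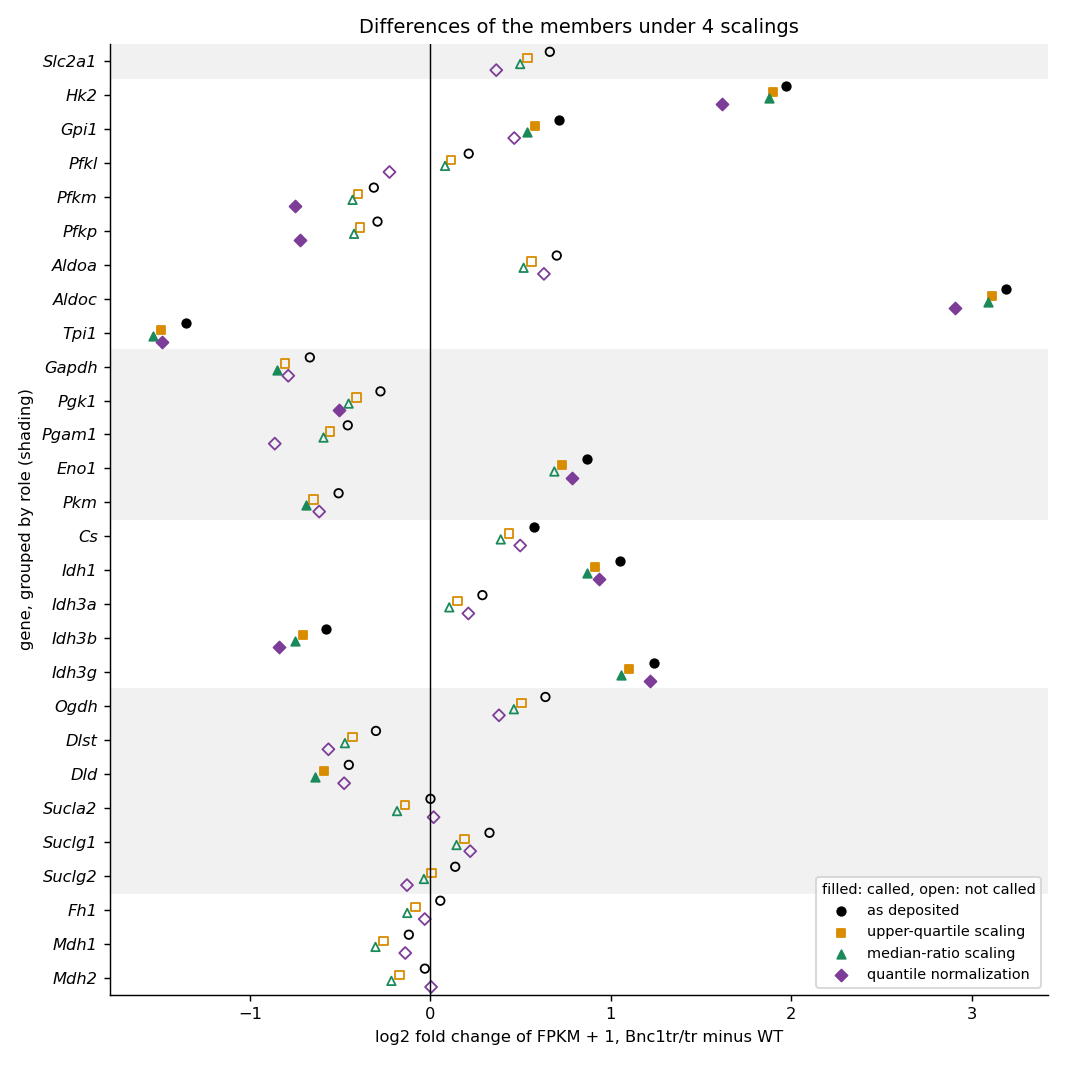
Log2 fold change of FPKM + 1, *Bnc1*tr/tr minus WT, of the 28 tested genes under 4 scalings: as deposited (circles), upper-quartile (squares), median-ratio (triangles) and quantile normalization (diamonds). Filled symbols were called and open symbols were not, and *Aldoc*, *Hk2*, *Idh3g* and *Idh1* on the right and *Tpi1* and *Idh3b* on the left are filled under all 4, whereas *Fh1*, *Sucla2* and *Suclg2* cross 0.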

How the data were processed

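Single-oocyte Smart-seq2 cDNA of 3 *Bnc1*tr/tr and 3 WT libraries was sequenced on an Illumina platform. The authors deposited 1 table of gene FPKM values per library, rounded, with NCBI Gene IDs, and neither fragment counts nor depth were given in the sources used here. The submitters' processing notes name HISAT2 2.0.4, Bowtie2 2.2.5, RSEM 1.2.12 and build GRCm38.p6 without saying which made the FPKM, and the annotation is not given in the sources used here.

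Symbols were used as listed, except 25 that had become dates and were restored from the Gene ID, and 17470 of 17577 IDs matched the RefSeq gene table of GRCm38.p6, which gave gene positions. Genotypes were compared with limma 3.58.1 (R 4.3.3) on log2(FPKM + 1), keeping genes that averaged 1 FPKM or more, and the adjusted p covers all tested genes. The fold change understates that of low genes. The fit was tested on simulated data. Ratios were tested with SciPy 1.17.1, and figures drawn with matplotlib 3.10.9. Depth was estimated from the spacing of low FPKM values and entered no test. Words of 31 bases shared with other genes came from GENCODE M21 transcripts. All 31 genes were named, in order of role, with the called genes of the other pathway list. The genes, lists and pairs were chosen with earlier results of these data known. Marker genes were listed in the same way. Alternatives were other scalings, a pseudocount of 0.1, no filter, trended and robust variances, a log2 threshold of 1, the replicate number as a block and leaving out replicates.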

Additional observations from a re-analysis of the deposited data

How the results depend on the processing

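Over 13 alternatives for each of the 28 tested genes, 364 values comprised 303 that kept direction and side of the thresholds, 24 that lost the call, 19 that gained it and 18 that changed sign. *Hk2*, *Aldoc*, *Tpi1*, *Idh1* and *Idh3g* were called in all 13 (adjusted p at most 8.3e-04, 3.4e-04, 0.045, 0.0087 and 0.0087), whereas *Gpi1* lost the call in 3, *Idh3b* in 5, *Eno1* in 7 and *Cs* in 9. The number of the 28 genes called was 5 (4 higher, 1 lower) with an absolute log2 fold change over 1, beside 15.9% of all tested genes, and 6 (5 higher, 1 lower) with a pseudocount of 0.1, beside 28.6%. Lower genes numbered 5 with median ratios and 5 with quantile normalization. With 1 replicate left out, 5 to 11 genes were called, 4 to 9 higher and 1 to 5 lower, beside 22.5% to 33.8% of all tested genes, and 5 to 9 of the other pathway genes. The latter numbered 4 with an absolute log2 fold change over 1. Leaving out *Bnc1*tr/tr replicates 1 and 2, or WT replicates 1 and 2, was chosen after seeing the data. The median log2 fold changes of the tested members were then 0.05 and 0.24. A fit of this kind assumes that the lone library of a genotype varies like the other group, and it has less power. The cause of the differences between fits was not tested.

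Libraries of the same number deviated from their genotype's mean with correlations of 0.28, -0.03 and 0.12. Their mean was 0.12, beside -0.06 for libraries of different number. The methods of the study state that littermates were compared, without linking library numbers to litters. The numbers were not taken as pairs, although replicate 1 was most often the highest and replicate 3 the lowest of the 28 genes in both genotypes. With the replicate block 12 of the 28 genes were called (9 higher, 3 lower), adding *Slc2a1*, *Aldoa* and *Gapdh*, and 35.4% of all tested genes. *Bnc1* had an adjusted p of 0.011 with the block.

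Signs turned for genes near 0. *Sucla2* was at -0.14 after upper-quartile and -0.18 after median-ratio scaling, and *Fh1* at -0.084, -0.13 and, after quantile normalization, -0.031. *Suclg2* was at -0.036 with median ratios and -0.13 with quantile normalization, where *Pfkl* was at -0.23 and *Mdh2* at 0.0041. With 1 replicate left out, log2 fold changes ran from -0.088 to 0.12 for *Sucla2*, -0.18 to 0.25 for *Fh1*, -0.20 to 0.0099 for *Mdh1* and -0.17 to 0.052 for *Mdh2*, and differences of log2 ratios from -0.073 to 0.26 for *Slc2a3*/*Slc2a1*, -0.10 to 0.30 for *Suclg2*/*Sucla2* and -0.10 to 0.24 for *Mdh2*/*Mdh1*. The other 9 ratios kept their sign in every such fit. Depth limits *Slc2a3*, *Hk1* and the WT levels of *Aldoc*, which lie near the value of a few fragments.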
